A study of Sus scrofa with 2 samples.

Results

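The platelet-derived growth factor (PDGF) system comprises 6 genes, the receptors PDGFRA (ENSSSCG00000008841) and PDGFRB (ENSSSCG00000022741) and the ligands PDGFA (ENSSSCG00000007541), PDGFB (ENSSSCG00000033327), PDGFC (ENSSSCG00000024960) and PDGFD (ENSSSCG00000014994). They were taken by symbol from the deposited feature list, where they were 6 of 21301 features. The rule used no measured value, but earlier results of these data were known when the genes were chosen. Their unique molecular identifier (UMI) counts, each UMI standing for 1 captured RNA molecule, were followed across cell classes of pig skeletal muscle as possible senders and receivers of the signal. The GDSS library came from Guangdong small-eared spotted piglets and the Yorkshire library from Yorkshire piglets, with 1 library per breed. In both, the tissue was longissimus dorsi, the long back muscle, of which 1 g was taken per animal, and the cells were freed of red and dead cells before 10x Genomics capture. The submitters compared the breeds for their difference in fat within the muscle, and labelled the cells intramuscular vascular stem cells. The number of piglets behind each library is not stated in the labels, so breed, animal, preparation and library cannot be told apart, and no difference between the libraries was tested.

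PDGFs are secreted as dimers and act on a pair of receptor tyrosine kinases. PDGFRA responds to the A, B and C chains, whereas PDGFRB responds mainly to the B and D chains. The A and B chains are released ready to bind, while the C and D chains carry an extra CUB domain that extracellular proteases must remove. In skeletal muscle of mouse and human, PDGFRA marks fibro-adipogenic progenitors, the stromal cells that can form fat and scar, and PDGFRB marks pericytes and smooth muscle of the vessel wall, which endothelial PDGFB recruits.

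The GDSS library kept 10582 cells with a median of 2873.5 UMIs and 37447539 UMIs in all, and the Yorkshire library kept 12667 cells with a median of 3003 UMIs and 46913454 in all. A gate on markers placed 9447 GDSS cells and 7951 Yorkshire cells in 7 classes, and they were not vascular cells alone. It left 1035 GDSS and 4289 Yorkshire cells ungated. Stromal-gated cells were 73.0% of the GDSS library and 15.4% of the Yorkshire library. Cells gated as satellite cells, the muscle stem cells, were 2.73% of the GDSS and 23.4% of the Yorkshire library. Clusters gave more satellite cells. The one led by TAGLN3 and PNMT held 321 GDSS and 2132 Yorkshire cells, and the one led by FAM83A and ALDH3A1 held 312 GDSS and 4341 Yorkshire cells. Of their cells over both libraries, 1355 of 2453 and 2668 of 4653 were ungated. Between 118 and 2960 cells per library fell in each of the satellite, endothelial, mural (vessel wall), glia, macrophage and tenocyte (tendon cell) classes. The libraries shared 47 barcodes, which is 0.383% of the GDSS and 0.320% of the Yorkshire barcodes. Free RNA, the RNA released from broken cells that reaches every droplet, was estimated at 2.10 to 13.2% of the library level across the GDSS classes and 4.03 to 8.58% across the Yorkshire classes.

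Levels are given as UMIs of a gene over all UMIs of a class, scaled to 1000000 (CPM), with 95% Poisson intervals. A gene is called above free RNA where the whole interval lay above that estimate. These intervals, and the binomial ones for shares of cells, cover counting error only.

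PDGFRA was found in stromal cells in both libraries, at levels whose counting intervals overlapped. It stood at 186 CPM in GDSS stromal cells (interval 181 to 191, 4876 UMIs) and at 193 CPM in Yorkshire stromal cells (184 to 203, 1553 UMIs). The ratio of GDSS over Yorkshire was 0.963 (0.909 to 1.02), a log2 ratio of −0.05 that became 0.18 with TMM scaling (trimmed mean of M-values) and 0.11 with median-of-ratios scaling, so its direction depended on the scaling. In each of the other 6 classes PDGFRA was not above free RNA, with 2.33 to 8.68 CPM in GDSS cells and 0.638 to 4.64 CPM in Yorkshire cells. The stromal level was 21.4 times that of the next class in GDSS (11.96 to 42.9, over endothelial cells) and 41.7 times in Yorkshire (17.8 to 129, over macrophages). The lower 6 classes did not differ from their neighbours in that order beyond counting error. Of the 388 cells of the perineurial-like cluster (nerve sheath cells, led by KRT8 and KRT18), 309 were gated as stromal and 34 as perineurial. That cluster had 183 CPM of PDGFRA in GDSS against 144 CPM in Yorkshire, for a ratio of 1.27 (1.01 to 1.60). Outside the 7 classes, perineurial-gated cells had 122 CPM in GDSS (2 UMIs, 5 cells) against 125 CPM in Yorkshire (28 UMIs, 33 cells). In cells thinned to 1000 UMIs each, a PDGFRA UMI was seen in 16.0% of GDSS stromal cells and 16.9% of Yorkshire stromal cells. The corresponding satellite values were 0 of 288 GDSS cells, which allows up to 1.27%, and 0.237% of Yorkshire cells. Without thinning the stromal shares were 39.5% in GDSS, at a median depth of 2970 UMIs, and 46.4% in Yorkshire, at 3594 UMIs, against satellite median depths of 2537 UMIs in GDSS and 3135 UMIs in Yorkshire.

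**Figure D1:**
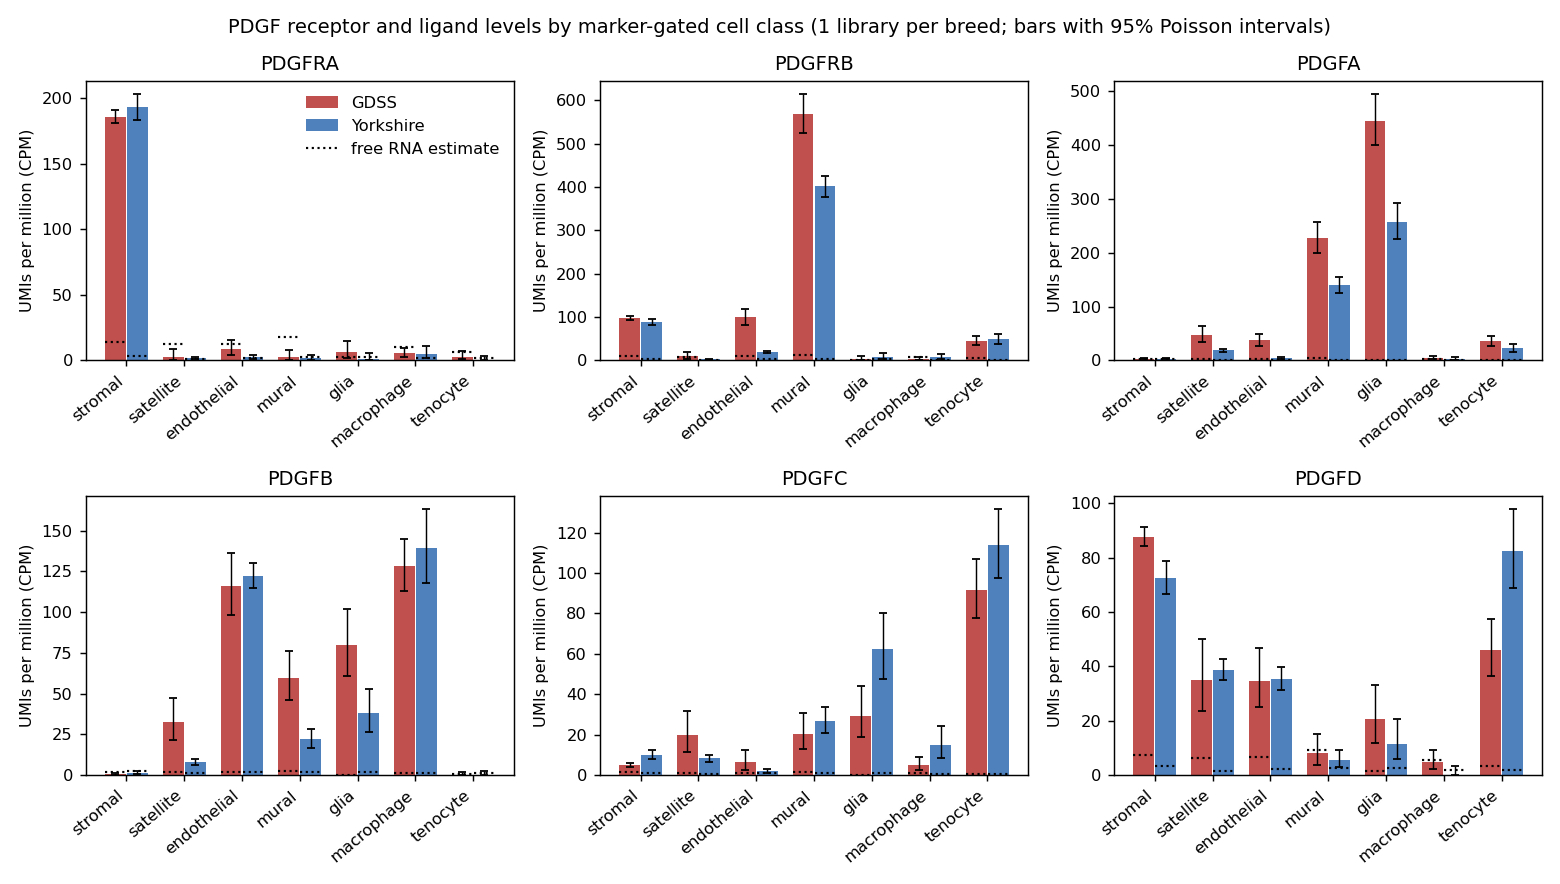
CPM of each PDGF gene (vertical axes, linear and different in each panel) in the 7 cell classes of the GDSS and Yorkshire libraries, with 95% Poisson intervals and the free RNA estimate as dotted lines. PDGFRA stood out in stromal cells (186 CPM in GDSS, 193 CPM in Yorkshire), PDGFRB in mural cells (568 CPM in GDSS, 401 CPM in Yorkshire), PDGFA in glia (445 CPM in GDSS, 258 CPM in Yorkshire), PDGFB in macrophages and endothelial cells, PDGFC in tenocytes, and PDGFD in stromal cells and tenocytes.

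Stromal cells with a UMI of PI16 or DPP4, markers of an adventitial progenitor state in other tissues, held more PDGFRA than the rest in GDSS. Their level was 228 CPM in GDSS against 209.5 CPM in Yorkshire, whereas stromal cells with neither marker stood at 174 CPM in GDSS against 188 CPM in Yorkshire. The ratio of marked over unmarked cells was 1.31 in GDSS (1.23 to 1.39) and 1.11 in Yorkshire (0.987 to 1.25). Among clusters built without the 6 PDGF genes, the one led by MYOC, ACKR2 and PI16 had 261 CPM of PDGFRA in GDSS and 229 CPM in Yorkshire, and the one led by FSTL5 and RSPO3 had 252 CPM in GDSS against 241 CPM in Yorkshire. Its lowest level among stromal clusters with at least 100 cells per library was in the cluster led by ISM1 and IGSF10, with 132 CPM in GDSS against 96.7 CPM in Yorkshire. The 2 libraries filled different stromal clusters. Of the stromal-gated cells, the cluster led by FSTL5 and RSPO3 held 4.27% in GDSS and 49.9% in Yorkshire, and the cluster led by PBK and TFPI held 32.0% in GDSS and 2.10% in Yorkshire. The PLAU and RASSF5 cluster held 28.0% in GDSS and 9.26% in Yorkshire.

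**Figure D2:**
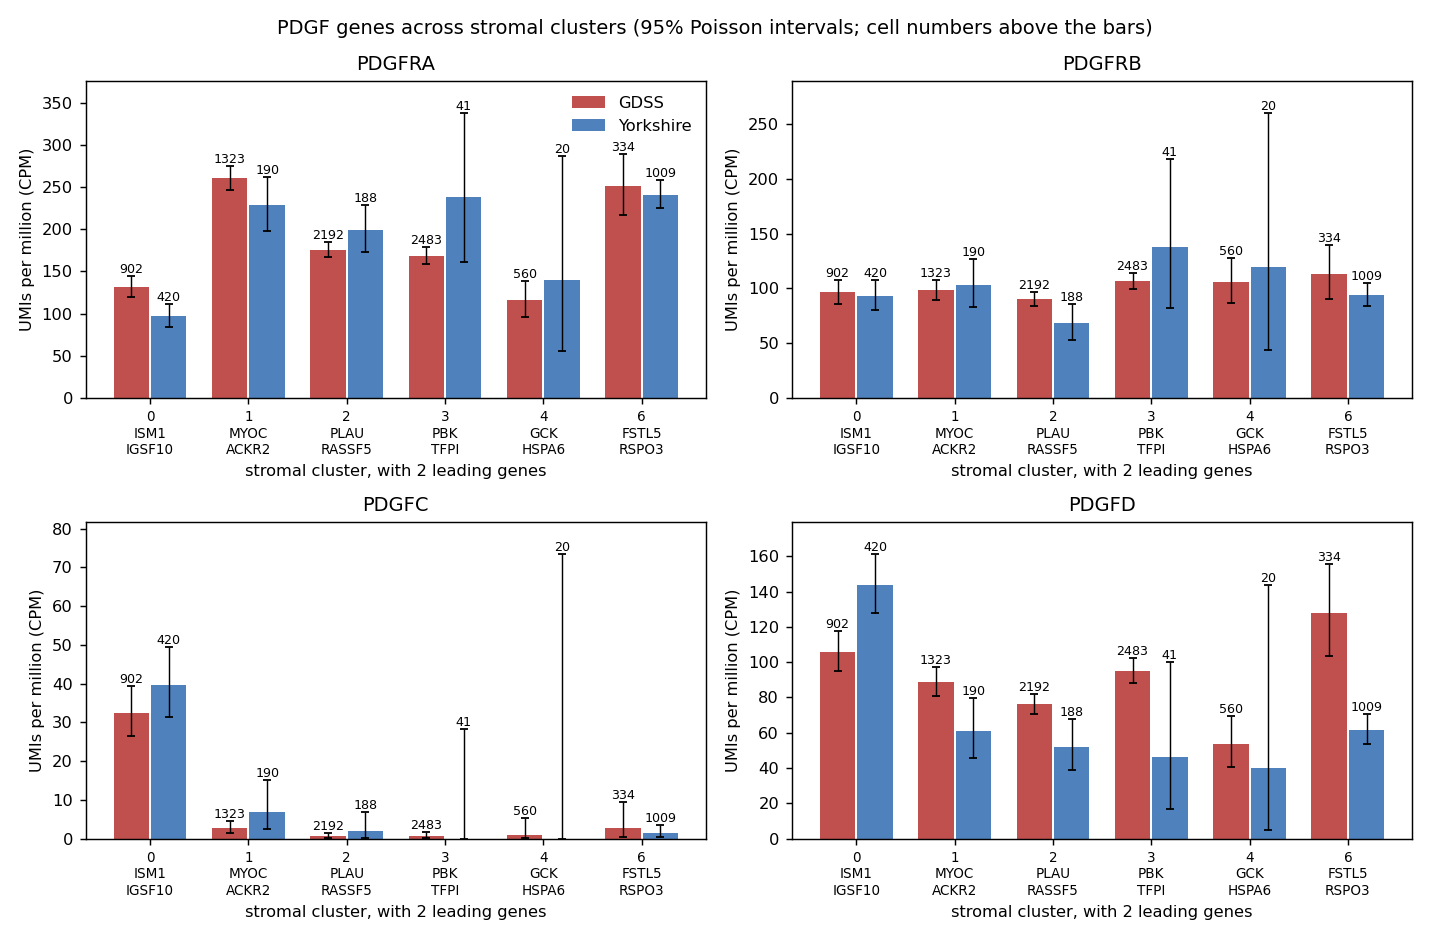
CPM of 4 PDGF genes (vertical axes) in 6 stromal clusters, each named by 2 leading genes, for GDSS and Yorkshire cells, with 95% Poisson intervals and cell numbers above the bars. PDGFC was mainly in the cluster led by ISM1 and IGSF10 (32.5 CPM in GDSS, 39.7 CPM in Yorkshire), while PDGFRA was lowest there in Yorkshire at 96.7 CPM.

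PDGFRB was highest in mural cells. Its level was 568 CPM in GDSS mural cells (525 to 614, 636 UMIs) and 401 CPM in Yorkshire mural cells (378 to 426, 1075 UMIs), for a ratio of 1.42 (1.28 to 1.56). Stromal cells came at 98.0 CPM in GDSS against 88.9 CPM in Yorkshire, with a ratio of 1.10 (1.01 to 1.199). Tenocytes had 44.3 CPM in GDSS against 48.5 CPM in Yorkshire, with a ratio of 0.912 (0.654 to 1.27). Satellite cells and glia held under 10 CPM in both libraries. After thinning, 41.7% of GDSS and 34.4% of Yorkshire mural cells had a PDGFRB UMI, against 9.57% of GDSS and 7.92% of Yorkshire stromal cells and 0.347% of GDSS and 0.203% of Yorkshire satellite cells. Unthinned, the mural shares were 70.6% in GDSS and 68.7% in Yorkshire, at median depths of 2467 UMIs in GDSS and 3219.5 UMIs in Yorkshire.

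Within the vessel wall, PDGFRB was higher in cells with pericyte markers than in cells with the smooth muscle genes MYH11 or CNN1. Pericyte-marked cells without MYH11 or CNN1 had 783 CPM in GDSS (180 cells) against 533 CPM in Yorkshire (297 cells). Cells with MYH11 or CNN1 had 380 CPM in GDSS (130 cells) against 340 CPM in Yorkshire (405 cells). The pericyte to smooth muscle ratio was 2.06 in GDSS (1.73 to 2.47) and 1.57 in Yorkshire (1.38 to 1.78), and pericyte-marked cells made up 51.9% of GDSS and 38.8% of Yorkshire mural cells. Across 3 mural clusters the spread was wider. The cluster led by HIGD1B and NDUFA4L2 had 1312 CPM in GDSS against 866 CPM in Yorkshire, the one led by MYH11 had 549 CPM in GDSS against 426 CPM in Yorkshire, and the one led by CCL19 had 219.6 CPM in GDSS against 216 CPM in Yorkshire.

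The endothelial level of PDGFRB rested on few cells. It was 99.5 CPM in GDSS (126 UMIs) against 19.5 CPM in Yorkshire (150 UMIs), for a ratio of 5.10 (3.99 to 6.50). A cluster left unnamed, in which 9 endothelial and 8 mural markers were detected together, held 44 of 254 endothelial-gated GDSS cells and 38 of 1589 Yorkshire cells. Those cells had median depths of 8334 UMIs in GDSS and 8693.5 UMIs in Yorkshire, against 2324 UMIs in GDSS and 3052 UMIs in Yorkshire for the rest of the class. They held 122 of the 126 GDSS and 104 of the 150 Yorkshire PDGFRB UMIs. Without them endothelial PDGFRB was 5.43 CPM in GDSS (1.48 to 13.9) against 6.36 CPM in Yorkshire (4.66 to 8.48), and the GDSS interval reached below its free RNA estimate of 9.46 CPM. Summed over the 8 mural markers, the endothelial class held 1342 CPM in GDSS against 346 CPM in Yorkshire.

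PDGFA was highest in glia, the Schwann cells of muscle nerves, and next in mural cells. Glia had 445 CPM in GDSS (399 to 494, 347 UMIs) against 258 CPM in Yorkshire (226 to 292, 244 UMIs), for a ratio of 1.73 (1.46 to 2.04). Mural cells had 227 CPM in GDSS against 140 CPM in Yorkshire (254 GDSS and 374 Yorkshire UMIs), for a ratio of 1.62 (1.38 to 1.91). As log2 the mural ratio was 0.70, but 0.54 with pericyte-marked and smooth muscle cells weighted equally and 0.57 without the 10 cells with most PDGFA UMIs, both under 1.5-fold. Those 10 cells are a larger part of the 347 GDSS than of the 766 Yorkshire mural cells. Satellite cells had 47.8 CPM in GDSS against 18.8 CPM in Yorkshire (41 GDSS and 194 Yorkshire UMIs), for a ratio of 2.54 (1.77 to 3.57). Summed over the 8 mural markers, satellite cells held 499 CPM in GDSS against 303 CPM in Yorkshire, and the part of this in the PDGFA ratio was not tested. Glia exceeded mural cells 1.96 times in GDSS (1.66 to 2.32) and 1.85 times in Yorkshire (1.56 to 2.17). Stromal cells as a whole, which hold its receptor PDGFRA, had 2.94 CPM of PDGFA in GDSS and 3.36 CPM in Yorkshire, neither above free RNA. The stromal cluster led by ISM1 and IGSF10 was higher, at 17.0 CPM in GDSS (55 UMIs) against 13.4 CPM in Yorkshire (27 UMIs), counted over all its cells, gated or not. In the other stromal clusters PDGFA was at most 3.95 CPM in GDSS and 2.30 CPM in Yorkshire. After thinning, 28.4% of GDSS and 19.2% of Yorkshire glia had a PDGFA UMI, against 0.222% of GDSS and 0.206% of Yorkshire stromal cells. The unthinned glia shares were 47.9% in GDSS, at a median depth of 2098.5 UMIs, and 34.2% in Yorkshire, at 2629 UMIs.

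Within each of the 2 glia clusters, which the libraries filled differently, the PDGFA ratio was smaller. The cluster led by CDH19 and CCK, with 376 GDSS and 233 Yorkshire cells, had 538 CPM in GDSS against 470 CPM in Yorkshire (469 GDSS and 285 Yorkshire UMIs), for a ratio of 1.14 (0.985 to 1.33). The other glia cluster, with 74 GDSS and 148 Yorkshire cells, had 36.4 CPM in GDSS against 32.8 CPM in Yorkshire (6 GDSS and 16 Yorkshire UMIs), for a ratio of 1.11 (0.356 to 2.98). Over the whole class the log2 ratio was 0.79 as counted and lay between 0.46 and 1.17 over the 9 alternatives. It was under 1.5-fold at 0.54 after thinning and at 0.46 with at most 5% mitochondrial UMIs, and largest at 1.17 with the stricter gate, at 313 CPM in GDSS against 139 CPM in Yorkshire.

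In mural cells, PDGFA did not follow the pericyte markers as PDGFRB did. Pericyte-marked cells had 167 CPM of PDGFA in GDSS and 146 CPM in Yorkshire, and cells with MYH11 or CNN1 had 239 CPM in GDSS against 134 CPM in Yorkshire. The pericyte to smooth muscle ratio of PDGFA was 0.6995 in GDSS (0.524 to 0.932) and 1.09 in Yorkshire (0.870 to 1.36). The cluster led by HIGD1B, highest for PDGFRB, had only 39.3 CPM of PDGFA in GDSS (8 UMIs) and 58.1 CPM in Yorkshire (11 UMIs). The cluster led by CCL19 had 369 CPM in GDSS against 122 CPM in Yorkshire, for a ratio of 3.03 (2.25 to 4.08). Endothelial PDGFA, at 37.1 CPM in GDSS against 4.42 CPM in Yorkshire, again rested on the cluster of mixed markers, which held 37 of 47 GDSS and 18 of 34 Yorkshire UMIs.

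**Figure D3:**
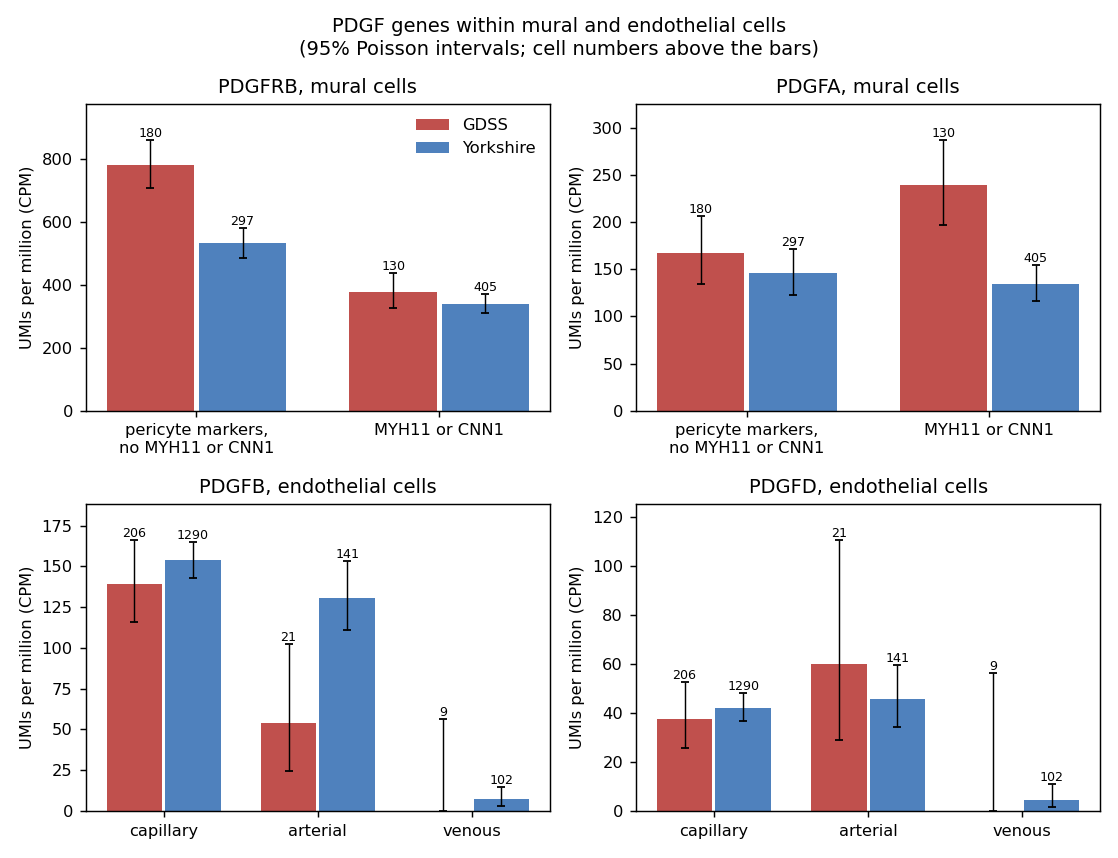
CPM of PDGF genes (vertical axes) in sub-gates of mural and endothelial cells of the GDSS and Yorkshire libraries, with 95% Poisson intervals and cell numbers above the bars. PDGFRB was higher in pericyte-marked cells than in cells with MYH11 or CNN1 (783 against 380 CPM in GDSS, 533 against 340 CPM in Yorkshire), and PDGFB was higher in capillary-marked than in venous-marked Yorkshire cells (154 against 7.41 CPM).

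PDGFB was highest in macrophages and endothelial cells. Macrophages had 128 CPM in GDSS (113 to 145, 257 UMIs) against 139 CPM in Yorkshire (118 to 163, 150 UMIs), for a ratio of 0.921 (0.750 to 1.13). Endothelial cells had 116 CPM in GDSS (98.0 to 136, 147 UMIs) against 122 CPM in Yorkshire (115 to 130, 940 UMIs), for a ratio of 0.949 (0.792 to 1.13). By the gate the 2 classes did not differ beyond counting error, with macrophage over endothelial ratios of 1.10 in GDSS (0.897 to 1.36) and 1.14 in Yorkshire (0.951 to 1.35). By clusters macrophages were higher in both libraries, at 177 CPM against 125 CPM for endothelial cells in GDSS and 175 CPM against 122 CPM in Yorkshire. After thinning, a PDGFB UMI was present in 14.8% of GDSS and 13.2% of Yorkshire endothelial cells and in 13.0% of GDSS and 11.02% of Yorkshire macrophages, against 0.0653% of GDSS and 0.103% of Yorkshire stromal cells. The unthinned endothelial shares were 33.9% in GDSS, at a median depth of 2700.5 UMIs, and 37.9% in Yorkshire, at 3107 UMIs. No PDGFB UMI was counted in tenocytes of either library, where 3 counts would be 1.77 CPM in GDSS against 1.92 CPM in Yorkshire.

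Endothelial PDGFB differed between vessel segments. Capillary-marked cells had 139 CPM in GDSS (206 cells) against 154 CPM in Yorkshire (1290 cells). Arterial-marked cells had 54.1 CPM in GDSS, from 9 UMIs in 21 cells, and 131 CPM in Yorkshire (141 cells). Venous-marked cells had no PDGFB UMI in the 9 GDSS cells and 7.41 CPM in the 102 Yorkshire cells (8 UMIs). In Yorkshire the capillary level was 20.8 times the venous level (10.5 to 48.3) and 1.18 times the arterial level (0.987 to 1.41). Among myeloid cells, the cluster led by CD209, CCL8 and C1QC had 177 CPM in GDSS against 175 CPM in Yorkshire, and an unnamed cluster with S100A12 had 40.6 CPM in GDSS against 22.1 CPM in Yorkshire. The macrophage gate mixed them, with 262 cells from the first and 111 from the second over both libraries.

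PDGFB was also above free RNA in mural, satellite and glia cells, at higher levels in GDSS. Mural cells had 59.8 CPM in GDSS (67 UMIs) against 22.0 CPM in Yorkshire (59 UMIs), for a ratio of 2.72 (1.89 to 3.92). The cluster of mixed endothelial and mural markers held 26 of those GDSS and 4 of those Yorkshire UMIs, and without it the levels were 46.2 CPM in GDSS against 21.3 CPM in Yorkshire. Summed over 9 endothelial markers, mural cells held 429 CPM in GDSS against 226 CPM in Yorkshire. Satellite cells had 32.7 CPM of PDGFB in GDSS (28 UMIs) and 7.77 CPM in Yorkshire (80 UMIs), for a ratio of 4.20 (2.63 to 6.54). As log2 that ratio was 2.07, against 1.16 by clusters and 1.39 without the 10 cells with most PDGFB UMIs. Those 10 cells are a larger part of the 289 GDSS than of the 2960 Yorkshire satellite cells. The value of 1.39 therefore cannot show that few cells carried the ratio. By satellite cluster, the PDGFB ratio was 3.25 (1.73 to 5.83) in the one led by TAGLN3 and PNMT. It was 1.43 (0.559 to 3.05) in the one led by FAM83A and ALDH3A1 and 1.65 (0.378 to 5.73) in the one led by PNMT and KLF15. In the one led by MYMK and ACTC1 it was 1.04 (0.191 to 3.72). The endothelial markers summed to 126 CPM in GDSS against 35.2 CPM in Yorkshire satellite cells. Their part in the satellite and mural ratios was not tested. Glia had 79.5 CPM in GDSS (62 UMIs) against 38.0 CPM in Yorkshire (36 UMIs), which is under the 100 UMIs asked of a comparison. Within the glia clusters, which the libraries filled differently, the levels were closer. The one led by CDH19 and CCK had 81.4 CPM in GDSS against 62.6 CPM in Yorkshire (ratio 1.30, 0.864 to 1.98). The other had 24.3 CPM in GDSS against 20.5 CPM in Yorkshire (1.18, 0.271 to 4.10).

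PDGFC, a ligand of PDGFRA, was highest in tenocytes. Its level there was 91.5 CPM in GDSS (155 UMIs) against 114 CPM in Yorkshire (178 UMIs), for a ratio of 0.805 (0.645 to 1.00), or −0.31 as log2, against −0.83 with the stricter gate and −0.84 after thinning. Tenocytes exceeded glia, the next class, 3.101 times in GDSS (1.99 to 5.04) and 1.82 times in Yorkshire (1.35 to 2.49). After thinning, 7.95% of GDSS and 13.7% of Yorkshire tenocytes had a PDGFC UMI, against 0.496% of GDSS and 0.720% of Yorkshire stromal cells. The unthinned tenocyte shares were 44.8% in GDSS and 50.9% in Yorkshire, at median depths of 6913 UMIs in GDSS and 6839.5 UMIs in Yorkshire. Mural cells had 20.5 CPM in GDSS against 26.9 CPM in Yorkshire, where cells carrying MYH11 or CNN1 had 27.3 CPM in GDSS against 39.3 CPM in Yorkshire and pericyte-marked cells 11.4 CPM in GDSS against 11.5 CPM in Yorkshire.

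Stromal PDGFC was low and concentrated in 1 cluster. It was 4.96 CPM in GDSS (130 UMIs) against 9.82 CPM in Yorkshire (79 UMIs), for a ratio of 0.505 (0.379 to 0.676). Cells of the ISM1 and IGSF10 cluster had 32.5 CPM in GDSS (105 UMIs) against 39.7 CPM in Yorkshire (80 UMIs), counted over all its cells, gated or not. Raised in this cluster were 7 stromal markers but also 4 tenocyte markers, and it held 14 tenocyte-gated and 122 ungated cells. That cluster was 10.5% of GDSS and 19.0% of Yorkshire stromal-gated cells, and with equal weight per cluster the log2 ratio was −0.082, against −0.99 as counted and −0.43 after thinning. Stromal cells with PI16 or DPP4 had 2.80 CPM in GDSS against 3.36 CPM in Yorkshire, and those with neither had 5.56 CPM in GDSS against 11.7 CPM in Yorkshire. In satellite cells the PDGFC ratio was in the other direction, with 19.8 CPM in GDSS (17 UMIs) against 8.26 CPM in Yorkshire (85 UMIs), for a ratio of 2.40 (1.34 to 4.08). Without the 10 cells with most PDGFC UMIs in each library its log2 ratio was 0.35, against 1.26 with them. A PDGFC UMI was seen in 5.88% of 289 GDSS and 2.67% of 2960 Yorkshire satellite cells. Leaving out 10 cells thus removes a larger part of the GDSS UMIs, so the fall cannot show that few cells carried the ratio.

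PDGFD, a ligand of PDGFRB, was above free RNA in stromal, satellite, endothelial, glia and tenocyte cells of both libraries. Stromal cells had 87.6 CPM in GDSS (2298 UMIs) against 72.5 CPM in Yorkshire (583 UMIs), for a ratio of 1.21 (1.10 to 1.33). Tenocytes had 46.0 CPM in GDSS (78 UMIs) against 82.3 CPM in Yorkshire (129 UMIs), for a ratio of 0.559 (0.416 to 0.746). Stromal cells exceeded tenocytes 1.90 times in GDSS (1.52 to 2.42), whereas in Yorkshire tenocytes stood at 1.14 times the stromal level (0.931 to 1.38), which is within counting error. Satellite cells had 35.0 CPM in GDSS against 38.6 CPM in Yorkshire, with a ratio of 0.907 (0.604 to 1.32). Endothelial cells had 34.7 CPM in GDSS against 35.3 CPM in Yorkshire, with a ratio of 0.985 (0.6995 to 1.36). Mural cells, where PDGFRB was highest, had 8.04 CPM in GDSS against 5.60 CPM in Yorkshire, with free RNA estimates of 9.26 CPM in GDSS against 2.77 CPM in Yorkshire. After thinning, 8.37% of GDSS and 6.28% of Yorkshire stromal cells had a PDGFD UMI, against 0.309% of GDSS and 0.395% of Yorkshire mural cells.

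The stromal clusters differed in PDGFD in ways that did not match between libraries. The cluster led by ISM1 and IGSF10 had 106 CPM in GDSS against 144 CPM in Yorkshire, for a ratio of 0.735 (0.627 to 0.863). The cluster led by FSTL5 and RSPO3 had 128 CPM in GDSS against 61.7 CPM in Yorkshire, for a ratio of 2.07 (1.61 to 2.65). Endothelial PDGFD was low in venous-marked Yorkshire cells, at 4.63 CPM, as PDGFB was, and the capillary level of 42.1 CPM was 9.09 times that (3.83 to 28.3). GDSS capillary-marked cells had 37.4 CPM.

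Across classes, 20 pairs of a PDGF gene and a class reached 100 UMIs over both libraries, and 9 of them were at least 1.5-fold apart. In satellite cells 3 of 4 were, all higher in GDSS, where 33.5% of the 6924 genes measured in that class were that far apart in either direction, 10.6% higher in GDSS and 22.9% higher in Yorkshire. In mural cells 2 of 3 were, PDGFA and PDGFB, both higher in GDSS (background 22.4%, of which 9.03% of all genes higher in GDSS and 13.4% higher in Yorkshire). In endothelial cells 1 of 3 was, PDGFRB in the cells described above (background 22.2%), and in glia 1 of 1, PDGFA (29.0%, with 8.29% higher in GDSS). In stromal cells 1 of 5 was, PDGFC (23.3%, with 6.13% higher in GDSS and 17.2% higher in Yorkshire), in tenocytes 1 of 3, PDGFD (25.6%, with 13.1% higher in Yorkshire), and in macrophages 0 of 1 (26.4%). With 1 to 5 members measured per class, these counts are too small to set apart from the background. The median log2 ratio of all genes measured in a class lay between −0.16 in stromal cells and 0.01 in tenocytes.

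**Figure D4:**
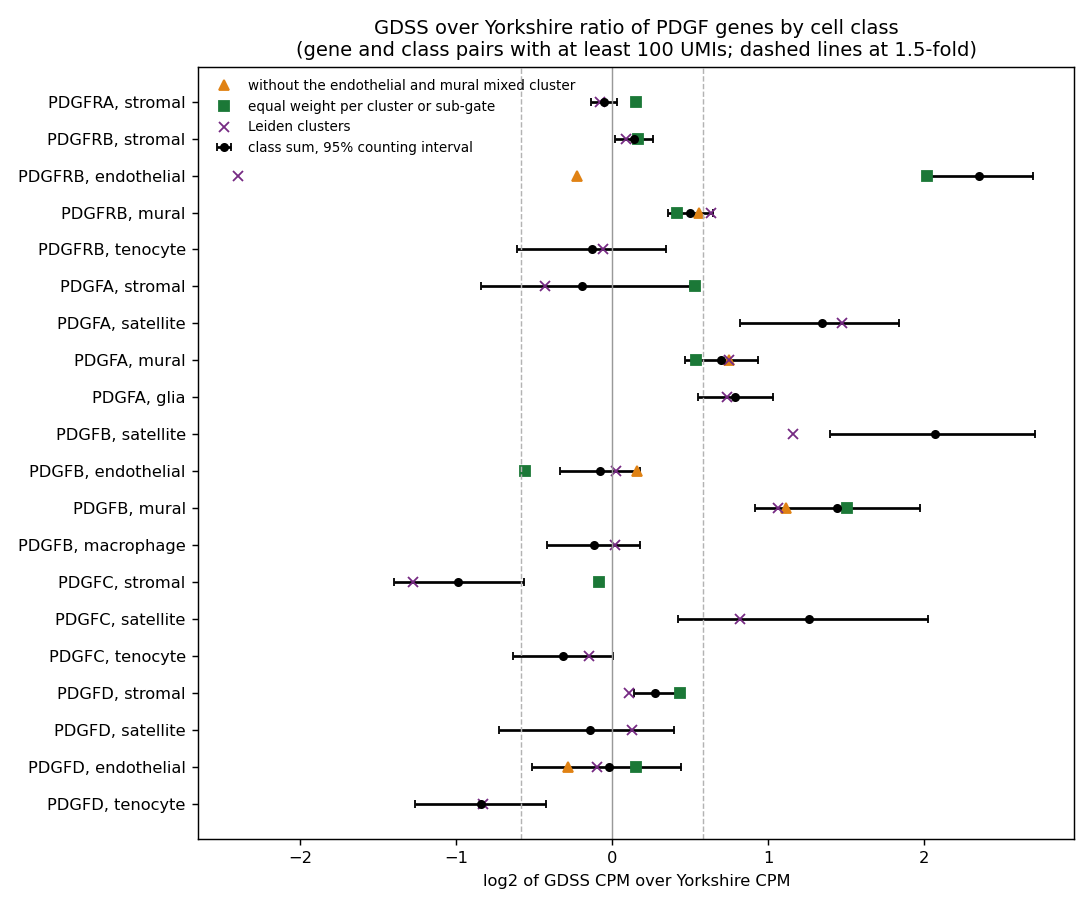
Log2 of the GDSS over Yorkshire CPM (horizontal axis) for the 20 pairs of PDGF gene and cell class with at least 100 UMIs, with 95% counting intervals and values under other settings as coloured marks, and dashed lines at 1.5-fold. PDGFB in satellite cells (2.07) and mural cells (1.44) lay right of the line under every setting shown, and PDGFD in tenocytes (−0.84) lay left of it. Endothelial PDGFRB (2.35) was −2.40 by clusters, where GDSS held 1 UMI in the cluster led by CA4 and 0 in the one led by ACKR1.

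Weighting each class by its cells gave a different picture of senders and receivers in the 2 libraries. Stromal cells held 99.2% of the gated PDGFRA UMIs in GDSS and 97.0% in Yorkshire. For PDGFRB, stromal cells held 75.0% in GDSS and 34.8% in Yorkshire, whereas mural cells held 18.6% in GDSS and 52.3% in Yorkshire. With equal weight per class the mural share was 68.7% in GDSS and 69.5% in Yorkshire. PDGFA UMIs lay 41.5% in glia and 30.4% in mural cells in GDSS, against 26.8% in glia and 41.1% in mural cells in Yorkshire. Satellite cells held 4.90% of PDGFA in GDSS and 21.3% in Yorkshire, and by clusters the Yorkshire shares were 33.1% in mural, 32.7% in satellite and 26.4% in glia cells. PDGFB UMIs were 44.5% in macrophages and 25.4% in endothelial cells in GDSS, against 11.7% in macrophages and 73.6% in endothelial cells in Yorkshire. PDGFC lay 42.3% in tenocytes in GDSS and 35.4% in Yorkshire. PDGFD lay 92.5% in stromal cells in GDSS, and in Yorkshire 41.5% in stromal, 28.2% in satellite and 19.3% in endothelial cells. The gate covered 94.96% of GDSS and 73.9% of Yorkshire PDGFD UMIs, and by clusters the Yorkshire order turned, with 42.7% in satellite and 33.5% in stromal cells. The number of cells in each class enters all shares as counted.

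**Figure D5:**
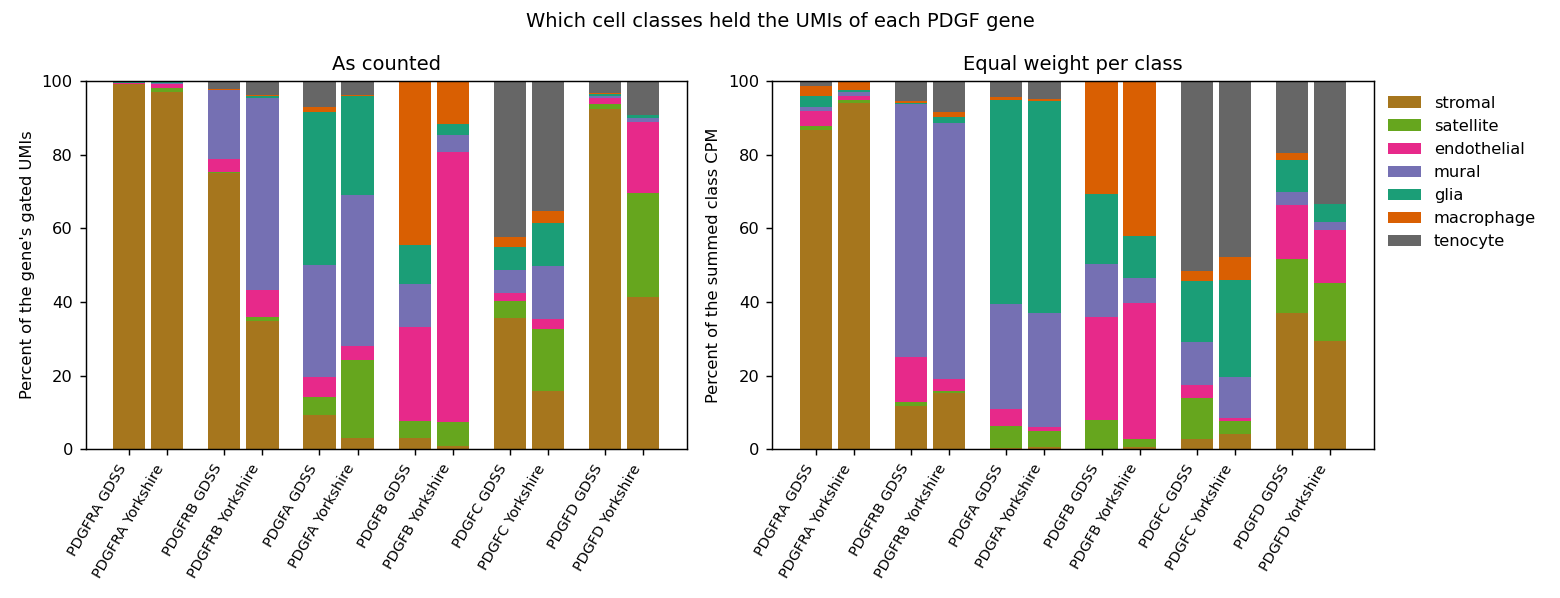
Percent of the gated UMIs of each PDGF gene held by each cell class, as counted (left) and with equal weight per class (right), for GDSS and Yorkshire. The PDGFRB share of mural cells was 18.6% in GDSS and 52.3% in Yorkshire as counted, and 68.7% in GDSS and 69.5% in Yorkshire with equal weight.

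The 5 known ligand and receptor combinations were then set against the 49 ordered pairs of classes, counting a pair where ligand and receptor were both above free RNA. PDGFA to PDGFRA was met in 6 pairs in GDSS and 5 in Yorkshire, all with stromal cells as receiver. Its senders in both libraries were satellite, endothelial, mural, glia and tenocyte cells. Stromal cells as a class were not counted as senders, with free RNA estimates of 3.20 CPM in GDSS and 2.24 CPM in Yorkshire. Their ISM1 and IGSF10 cluster, however, had 17.0 CPM of PDGFA in GDSS and 13.4 CPM in Yorkshire. Without the cluster of mixed markers, endothelial PDGFA was 13.6 CPM in GDSS (6.51 to 25.0) against a free RNA estimate of 2.87 CPM, and 2.21 CPM in Yorkshire (1.26 to 3.59) against 1.55 CPM, so the Yorkshire endothelial sender rested on that cluster. PDGFC to PDGFRA was met with all 7 classes as sender in both libraries, including stromal cells themselves. The endothelial class held 8 GDSS and 14 Yorkshire PDGFC UMIs. Without the cluster of mixed markers its GDSS level was 5.43 CPM (1.48 to 13.9), against a free RNA estimate of 1.21 CPM. The Yorkshire level was then 1.66 CPM (0.8573 to 2.90), and its interval reached just below the free RNA estimate of 0.8579 CPM. PDGFB to PDGFRA was met with 5 senders in both, namely satellite, endothelial, mural, glia and macrophage cells. PDGFB to PDGFRB was met in 20 pairs in GDSS and 30 in Yorkshire, and PDGFD to PDGFRB in 20 in GDSS and 36 in Yorkshire. All 20 GDSS pairs of each of these also appeared in Yorkshire. Of each 20, 5 had endothelial cells as receiver, and those rested on the cluster of mixed markers, without which GDSS endothelial PDGFRB was not above free RNA. The PDGFB pairs met in Yorkshire alone all had glia or macrophages as receiver, with 8 PDGFRB UMIs in Yorkshire glia and 9 in Yorkshire macrophages. These counts describe RNA in classes and not contact, secretion or receptor activation.

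Some cells held UMIs of 2 PDGF genes. After thinning, 151 of 7661 GDSS stromal cells (1.97%, interval 1.67 to 2.31) and 26 of 1944 Yorkshire stromal cells (1.34%, 0.875 to 1.95) had UMIs of PDGFRA and PDGFRB. PDGFRB was seen in 12.3% of GDSS stromal cells with PDGFRA and 9.04% of those without, and in 7.90% of Yorkshire stromal cells with PDGFRA and 7.93% of those without. PDGFRA and PDGFD were seen together in 1.44% of GDSS and 0.926% of Yorkshire stromal cells. In mural cells, PDGFRB and PDGFA were seen together in 5.56% in GDSS and 3.82% in Yorkshire. In glia, PDGFA and PDGFB were seen together in 12 of 328 GDSS cells (3.66%, 1.90 to 6.30) and 5 of 334 Yorkshire cells (1.497%, 0.488 to 3.46). Without thinning the stromal share with both receptors was 12.4% in GDSS and 14.4% in Yorkshire.

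The genes whose levels followed each member most closely were sought over 14 sums (7 classes in 2 libraries) among 7828 genes, by Pearson r of log2(CPM + 1). The points share libraries, depth and the marker gate, so r is given as a description. PDGFRA was closest to MFAP5 (0.98), itself a gate marker, then TNXB (0.97), VIT (0.96) and COL6A6 (0.95). PDGFRB was closest to RSU1 (0.97), DAAM2 (0.94), COX4I2 (0.94) and PRKG1 (0.92). PDGFA was closest to PTPMT1 (0.92), SOX6 (0.89), CD9 (0.88) and VAMP2 (0.88). CD9 is the surface gene in the series title. PDGFB was closest to MGST1 (0.95), DYRK3 (0.94), PTBP3 (0.94) and KIAA0930 (0.93). PDGFC was closest to AK1 (0.90), COL11A2 (0.87), MICU2 (0.87) and UBE2E3 (0.86), and PDGFD to TPBG (0.91), MPZL1 (0.91), FKBP1B (0.89) and the gate marker FBLN1 (0.88). Among the members themselves, r ran between −0.67 for PDGFB with PDGFD and 0.56 for PDGFA with PDGFC.

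The 36 other genes of the pathway were counted in the same way. In stromal cells 30 were measured, with 2 of them past 1.5-fold in favour of GDSS (6.13% of all genes) and 4 in favour of Yorkshire (17.2%), and the median log2 ratio was −0.10 against −0.16 for all genes. The 2 were PLAU, the urokinase that can activate PDGFD, at 509 CPM in GDSS against 186 CPM in Yorkshire (ratio 2.74, 2.60 to 2.89), and SOCS3, a feedback inhibitor of cytokine signalling, at 1332 CPM in GDSS against 684 CPM in Yorkshire (1.95, 1.89 to 2.002). PTPRJ, a phosphatase of PDGFRB, had 7.55 CPM in GDSS against 15.3 CPM in Yorkshire (0.494, 0.392 to 0.623), and the adaptor GAB1 had 21.5 CPM in GDSS against 41.8 CPM in Yorkshire (0.515, 0.449 to 0.591). In mural cells 24 were measured, 6 higher in GDSS (9.03% of all genes) and 3 higher in Yorkshire (13.4%), with a median of 0.26 against −0.09 for all genes. Among them were PLAU at 437 CPM in GDSS against 129 CPM in Yorkshire, with free RNA estimates of 56.0 CPM in GDSS against 8.42 CPM in Yorkshire, and PTPN1, a phosphatase, at 205 CPM in GDSS against 83.6 CPM in Yorkshire. SPRY2, a feedback inhibitor of receptor kinases, had 212 CPM in GDSS against 106 CPM in Yorkshire mural cells (2.003, 1.68 to 2.39). Without the cluster of mixed markers these mural ratios were 2.67 for PLAU, 2.22 for PTPN1 and 1.96 for SPRY2.

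In endothelial cells 27 pathway genes were measured, 5 higher in GDSS (9.04% of all genes) and 4 higher in Yorkshire (13.2%), with a median of 0.09 against −0.03 for all genes. PLAU had 435 CPM in GDSS against 49.4 CPM in Yorkshire (8.80, 7.71 to 10.1), SPRY2 had 81.3 CPM in GDSS against 28.1 CPM in Yorkshire (2.89, 2.27 to 3.68) and SHC1, an adaptor, 82.1 CPM in GDSS against 43.1 CPM in Yorkshire (1.91, 1.51 to 2.38). PLAU turned to the other direction without the cluster of mixed endothelial and mural markers, with 9.50 CPM in GDSS (7 UMIs) against 41.5 CPM in Yorkshire (300 UMIs), for a ratio of 0.229 (0.0913 to 0.478). SPRY2 fell under 1.5-fold without it (1.44, 0.924 to 2.16), whereas SHC1 stayed above (1.70, 1.24 to 2.29). Free RNA of PLAU in the whole endothelial class was estimated at 40.6 CPM in GDSS against 7.32 CPM in Yorkshire. KIT, another receptor kinase of the same class and also a mast cell marker, had 10.3 CPM in GDSS against 88.3 CPM in Yorkshire endothelial cells (0.116, 0.0615 to 0.200). It was lower in GDSS in mural cells too (7.14 CPM in GDSS against 35.5 CPM in Yorkshire, 0.201, 0.0845 to 0.413) and in satellite cells (8.17 CPM in GDSS against 23.9 CPM in Yorkshire, 0.342, 0.136 to 0.715). In satellite cells 27 pathway genes were measured, 4 higher in GDSS (10.6% of all genes) and 7 higher in Yorkshire (22.9%), and both the list and all genes had a median of −0.12. PCSK6, a proprotein convertase, had 9.33 CPM in GDSS against 32.1 CPM in Yorkshire satellite cells (0.291, 0.125 to 0.580), PTPN11 had 31.5 CPM in GDSS against 57.1 CPM in Yorkshire (0.551, 0.3603 to 0.811) and SHC1 18.7 CPM in GDSS against 32.4 CPM in Yorkshire (0.575, 0.325 to 0.948). In glia 11 were measured, 2 higher in GDSS (8.29% of all genes) and 2 higher in Yorkshire (20.7%). In macrophages 17 were measured, 4 higher in GDSS (12.2%) and 2 higher in Yorkshire (14.2%). In tenocytes 9 were measured, 0 higher in GDSS (12.5%) and 1 higher in Yorkshire (13.1%).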

How the data were processed

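Single-cell RNA-seq of 1 GDSS and 1 Yorkshire library was analysed. The deposited matrices hold raw UMI counts per gene and barcode, and the submitters' processing notes name Cell Ranger, with software version 3.1.0 per the file headers, and R 3.5.2 with no role. No genome build was given in the sources used here. For that reason neither coordinates nor sequences are printed. Of 21301 features, 14846 had a symbol in the feature list and 680 more were named from a pig gene table.

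Barcodes were kept with at least 500 genes, at most 10% mitochondrial UMIs and a scrublet doublet score under 0.3, out of 12286 GDSS and 14695 Yorkshire barcodes. The score threshold was set after the scores were seen, since the automatic one marked 0 GDSS barcodes and 2.75% of Yorkshire barcodes. The GDSS library lost 1164 barcodes to genes and mitochondria and 540 (4.40%) to doublets, the Yorkshire library 872 to genes and mitochondria and 1156 (7.87%) to doublets. A marker counted as on at 10% or more of its 99th percentile. A cell took the class with the highest share of markers on, with at least 2 on and a margin of 1.5 times over the next list. The gate's scoring was chosen after marker levels were seen. Of satellite cells, 63.0% in GDSS and 61.9% in Yorkshire lay near that cut, of tenocytes 55.2% in GDSS and 49.1% in Yorkshire, of glia 50% in GDSS and 32.1% in Yorkshire, and of stromal cells 5.80% in GDSS and 9.77% in Yorkshire.

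Counts were summed per class and library. CPM came with exact Poisson intervals, ratios with exact conditional binomial intervals and shares with Clopper-Pearson intervals. A gene was measured with 100 UMIs over both sums and apart at 1.5-fold. Free RNA was estimated from genes at least 20-fold specific to other classes. Clusters (scanpy 1.11.5, igraph 0.11.9) used 2000 variable genes without the 6 members, 30 components, 15 neighbours and resolution 1. TMM factors came from edgeR 4.0.16. On counts simulated with Poisson error alone, intervals held the true fold in 95.0 to 96.3% of genes per class. That checks the calculation and not variation between cells, animals or libraries. The members, the pathway and marker lists and the named genes (the largest ratios of the pathway list, up to 4 a class, and the 4 most like genes per member) were chosen with earlier results of these data known. A planned division of the glia class is not reported here. Alternatives are in the closing section.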

Additional observations from a re-analysis of the deposited data

Results flagged for a closer look

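PDGFC was higher in GDSS satellite cells and higher in Yorkshire stromal cells. Its log2 ratio of GDSS over Yorkshire was 1.26 in satellite cells and −0.99 in stromal cells, opposite directions under the same comparison, and the difference between them was not tested. The stromal level was under 10 CPM in both libraries, and the satellite sum held 17 GDSS and 85 Yorkshire UMIs.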

How the results depend on the processing

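No paired analysis was possible because each breed has 1 library. With no replicate, a value counted as moved where it left its counting interval. Of the main values under all alternatives, 179 stayed, 61 moved and 2 reversed. Both reversals were PDGFRB in endothelial cells, whose log2 ratio was 2.35 by the gate, −2.40 by clusters and −0.23 without the cluster of mixed markers. The endothelial cluster led by CA4 held 1 GDSS UMI of it and the one led by ACKR1 held 0, against 27 and 19 in Yorkshire. In the CA4 cluster the ratio was 0.242 (0.00590 to 1.47). Without the cluster of mixed markers 4 GDSS and 46 Yorkshire UMIs were left, so both negative signs rest on few GDSS UMIs. Of the other values 205 stayed, 65 moved and 1 reversed, PLAU in endothelial cells, whose log2 ratio was 3.14 as counted and −2.13 without that cluster. Under at least 1 alternative the sign of the log2 ratio also changed for PDGFRA and PDGFA in stromal cells, PDGFB and PDGFD in endothelial cells, PDGFD in satellite cells, PDGFB in macrophages and PDGFRB in tenocytes, all under 1.5-fold as counted. Added after the data were seen were the settings without the mixed or the perineurial cluster, equal weight per cluster or sub-gate, and without the 10 cells with the most UMIs.

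With TMM scaling, the log2 ratio was 0.18 for stromal PDGFRA and 0.51 for stromal PDGFD, and with median-of-ratios scaling 0.11 and 0.43. These scalings moved the median of all stromal genes by 0.23 and 0.16. With free RNA subtracted, stromal PDGFRA was −0.15, with 172 CPM in GDSS, and stromal PDGFD 80.1 CPM in GDSS. With equal weight per cluster or sub-gate, the log2 ratio was 0.15 for stromal PDGFRA, −0.082 for stromal PDGFC and 0.43 for stromal PDGFD. With clusters in place of the gate it was 0.11 for stromal PDGFD and 1.16 for satellite PDGFB. Without the 10 cells with most UMIs it was 1.39 for satellite PDGFB, 0.35 for satellite PDGFC and 0.29 for macrophage PDGFB, and the last turned positive. This setting takes a larger part of the library with fewer cells of a class, which was GDSS for satellite cells and Yorkshire for macrophages. At 5% mitochondrial UMIs it was 0.98 for mural PDGFA and 0.46 for glia PDGFA. After thinning it was −0.43 for stromal PDGFC, 0.89 for mural PDGFB, 0.54 for glia PDGFA, 0.31 for macrophage PDGFB and −0.84 for tenocyte PDGFC. With the stricter gate it was 1.17 for glia PDGFA and −0.83 for tenocyte PDGFC.

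Thinning gave 179 CPM for GDSS stromal PDGFRA, 639 and 441 CPM for GDSS and Yorkshire mural PDGFRB, 157 CPM for GDSS macrophage PDGFB and 149.8 CPM for Yorkshire tenocyte PDGFC. The 5% mitochondrial limit gave 466 and 315 CPM for GDSS and Yorkshire mural PDGFRB and 367 CPM for GDSS glia PDGFA. Keeping doublets gave 183 CPM for Yorkshire stromal PDGFRA and 374 CPM for Yorkshire mural PDGFRB. The stricter gate gave 313 and 139 CPM for GDSS and Yorkshire glia PDGFA and 74.1 and 132 CPM for tenocyte PDGFC. Clusters gave 619 CPM for GDSS mural PDGFRB, 177 and 175 CPM for GDSS and Yorkshire macrophage PDGFB and 81.7 CPM for Yorkshire stromal PDGFD, which was 79.0 CPM without the perineurial cluster.

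With equal weight per class, the shares in GDSS and Yorkshire were 86.7 and 94.0% for stromal PDGFRA, 68.7 and 69.5% for mural PDGFRB, 55.6 and 57.5% for glia PDGFA, 30.7 and 42.0% for macrophage PDGFB, 51.5 and 47.8% for tenocyte PDGFC and 37.0 and 29.5% for stromal PDGFD. By clusters they were 49.0% for GDSS glia PDGFA, 50.1% for GDSS tenocyte PDGFC, 90.7 and 33.5% for stromal PDGFD, 96.0% for Yorkshire stromal PDGFRA and 54.6% for Yorkshire mural PDGFRB. The cause of these moves was not tested. With a minimum of 20 UMIs in place of 100, the genes 1.5-fold apart numbered 3754 against 2295 in stromal cells, 4189 against 2321 in satellite cells, 3190 against 1494 in endothelial cells, 2862 against 1052 in mural cells, 2721 against 730 in glia, 2444 against 833 in macrophages and 2567 against 742 in tenocytes.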
